A study of Homo sapiens with 4 samples.

Results

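The 50 genes described here build and run the mitotic spindle, the kinetochores and the division of the cell. They were chosen by symbol from knowledge of their roles, with earlier results of these data known. The shares given below are therefore descriptions. All 50 were found among the 61228 gene symbols counted in the RNA-seq libraries. Cells of H1792, an established human lung cancer line labelled wild type, had been kept for 96 h with ACBI1 or with the solvent DMSO, in RPMI-1640 medium with 10% serum. ACBI1 is a PROTAC, a molecule that brings the VHL ubiquitin ligase to SMARCA2, SMARCA4 and PBRM1, subunits of the SWI/SNF chromatin remodelling complexes, so that these proteins are degraded. The dose is written as 1 mM in the labels, a unit that could not be checked from counts. Each group held 2 libraries of this single line, which makes 4 in all. Nothing in the labels says that replicates were separate cultures, so p-values measure the spread between these libraries, which may be technical.

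Before mitosis, cyclin B and the kinase CDK1 form the complex that starts chromosome condensation and spindle assembly. Kinetochores are protein plates on the centromeres that hold microtubules, and until each chromosome is attached the spindle checkpoint keeps the anaphase-promoting complex, a ubiquitin ligase, inactive. After its release, securin and cyclin B are destroyed, separase cuts the cohesin between sister chromatids, and the central spindle and a contractile ring divide the cell. Many of these genes are transcribed late in the cell cycle under the MuvB complex with MYBL2 and FOXM1, and are repressed in quiet cells by the DREAM complex through a promoter element called CHR.

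Counts assigned to genes summed to between 64281850 and 86010100 per library, and levels are given as CPM, counts per 1000000 counts after TMM scaling. Transcripts of the degrader's targets do not check degradation: SMARCA4 was at 284 and 216 CPM with DMSO and at 414 and 398 CPM with ACBI1, and none of SMARCA4, SMARCA2 and PBRM1 passed the test (adjusted p 0.0583, 0.163 and 0.734). Of 6 epithelial markers, whose summed level was 982 and 1035.1 CPM with DMSO and 323 and 202 CPM with ACBI1, 4 keratin genes were called lower, while CDH1 was at most at 0.222 CPM in each library. The sixth, EPCAM, was at 5.38 and 2.78 CPM with DMSO and at 15.6 and 4.84 CPM with ACBI1, with overlap of the groups and no call. Of 7 leukocyte and endothelial markers, CD3E had 0 counts in each library and PTPRC was at most at 0.0278 CPM. The summed level of the 7 was 12.8 and 49.3 CPM with DMSO against 0.246 and 0.290 CPM with ACBI1. Nearly all of the DMSO level came from the endothelial marker PECAM1. PECAM1 was at 12.2 and 48.1 CPM with DMSO and at 0.0112 and 0.0458 CPM with ACBI1, and was called lower (adjusted p 0.00431). VWF, at most at 0.320 CPM in each library, was also called lower (adjusted p 0.0130), and CD14 was not called. Reads outside annotated genes were 5.65% and 5.07% with DMSO and 6.05% and 6.24% with ACBI1. The part of these differences in the results below was not tested.

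Transcripts of mitotic genes were mostly higher with ACBI1, by small amounts. Of the 50 genes, 47 had a positive log2 change, the median was 0.59, and the median of all 19159 genes tested was 0.01. By edgeR's quasi-likelihood test at a Benjamini-Hochberg adjusted p under 0.05, 13 rose and 0 fell. That is 26.0% of the members, where 17.4% of all genes tested were called, 6.75% higher and 10.6% lower. Without adjustment, 31 members had a p under 0.05 upward and 1 downward, against 15.4% and 18.5% of all genes tested, and in DESeq2 the adjusted calls were 19 higher and 1 lower (9.95% and 13.6% of all genes tested). No member reached a change of 2-fold, a size that 1625 genes (8.48%) exceeded upward. Both ACBI1 libraries lay above both DMSO libraries in 39 members (78.0%, against 31.1% of all genes tested) and below them in 1 (32.2% of all genes tested). The number called depended on single libraries: it was 3 without ACBI1 replicate 2 (3.40% of all genes tested), 4 without DMSO replicate 2 (3.94%), 8 without ACBI1 replicate 1 (2.77%) and 12 without DMSO replicate 1 (7.48%). It was 0 at a threshold of 0.01 (0.898%), and 23 higher with 1 lower when every gene with a count was kept (6.70% and 10.1%). In bulk RNA, more cells in the late cell cycle and more RNA per cell cannot be told apart.

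**Figure D1:**
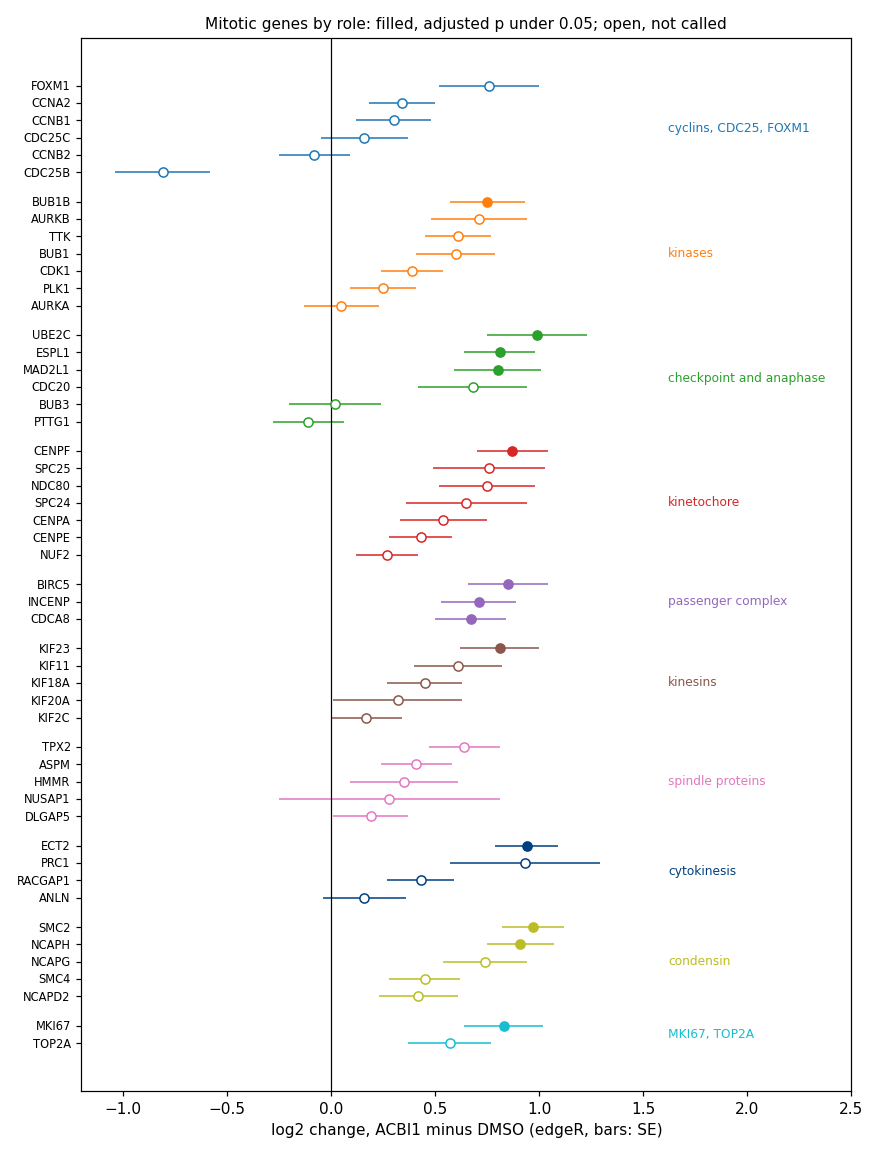
Log2 change of each of the 50 genes, ACBI1 minus DMSO, with its standard error as a bar (n = 2 libraries per group), grouped by role. Filled points are the 13 genes called higher, open points were not called, and CDC25B at -0.81 lies lowest.

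For the subgroup counts below, 6.75% of all genes tested were called higher. Both ACBI1 libraries lay above both DMSO libraries in 31.1% of them. Of the 6 regulators of mitotic entry, none was called, and their median log2 change of 0.23 was the lowest of the subgroups. FOXM1, the transcription factor that drives many late cell cycle genes, was at 106 and 130 CPM with DMSO and at 160 and 239 CPM with ACBI1. The groups did not overlap, and the log2 change of 0.76 (SE 0.24) missed the threshold with an adjusted p of 0.0801. An exon overlap with ITFG2 on the other strand covers 15.9% of its exonic length. CDC25B, a phosphatase that activates CDK1, was the only member with lower values in both ACBI1 libraries, at 154 and 153 CPM against 69.1 and 106 CPM. The log2 difference was -0.81 (SE 0.23, adjusted p 0.0618) and missed the threshold, and the ACBI1 libraries differed from each other more than the DMSO libraries did. CDC25B was called lower by 2 of 8 alternatives that kept all 4 libraries without a block, with adjusted p from 0.000962 to 0.0695 over the 8. Its paralogue CDC25C was at 10.2 and 9.63 CPM with DMSO and at 11.1 and 11.0 CPM with ACBI1, a log2 change of 0.16 (SE 0.21, adjusted p 0.651).

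The cyclins had small changes, although in CCNB1 and CCNA2 both ACBI1 libraries lay above both DMSO libraries. CCNB1 was at 98.9 and 103 CPM with DMSO and at 109 and 140 CPM with ACBI1, a log2 change of 0.30 (SE 0.18, adjusted p 0.294). CCNB2, the other B-type cyclin, was at 47.2 and 57.4 CPM against 46.2 and 52.6 CPM, and the groups overlapped. Its log2 change of -0.08 (SE 0.17, adjusted p 0.783) turned to 0.00 under scaling by library size only. CCNA2, the cyclin of S phase and early mitosis, was at 43.1 and 40.0 CPM against 48.3 and 57.3 CPM, a log2 change of 0.34 (SE 0.16, adjusted p 0.199). None of the 3 cyclins was called, which does not show that they were the same in both groups.

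Among the 7 mitotic kinases the median log2 change was 0.60, and BUB1B alone was called. BUB1B encodes BubR1, the checkpoint protein that helps to hold CDC20 inactive, and it rose from 47.9 and 48.6 CPM to 70.4 and 91.6 CPM. This is a log2 change of 0.75 (SE 0.18, adjusted p 0.0397), with 10.2% of the exonic length shared with the BUB1B-PAK6 readthrough gene. TTK, which encodes the checkpoint kinase MPS1, was at 29.4 and 25.5 CPM against 40.4 and 43.7 CPM (log2 change 0.61, adjusted p 0.0515), and was called by 5 of the 8 alternatives. BUB1, which marks kinetochores for the checkpoint, was at 71.4 and 83.7 CPM against 103 and 132 CPM (log2 change 0.60, adjusted p 0.0831). For CDK1 itself the log2 change was 0.39 (adjusted p 0.137), and for PLK1, the Polo kinase of spindle poles and kinetochores, 0.25 (adjusted p 0.325). In BUB1, TTK, CDK1 and PLK1 the groups did not overlap.

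The Aurora kinases stood side by side with different values. AURKA, the kinase of the spindle poles, was at 69.5 and 74.4 CPM with DMSO and at 65.0 and 83.6 CPM with ACBI1. Its groups overlapped, and the log2 change of 0.05 (SE 0.18, adjusted p 0.886) was the smallest of the kinases. AURKB, the kinase of the centromere and midzone, was at 37.7 and 24.7 CPM against 47.7 and 54.4 CPM, with no overlap. The difference of 0.71 on the log2 scale (SE 0.23, adjusted p 0.0884) missed the threshold. The ratio of AURKA to AURKB counts was 1.85 and 3.02 with DMSO and 1.36 and 1.54 with ACBI1, and the difference between the changes of the paralogues was not tested.

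Of the checkpoint adaptors and the genes that act on the anaphase-promoting complex, 3 of 6 rose, and the median log2 change was 0.74. UBE2C, the ubiquitin-conjugating enzyme that starts chains for the complex, had the largest change of all 50 genes. It was at 64.8 and 42.5 CPM with DMSO and at 116 and 98.1 CPM with ACBI1, a log2 change of 0.99 (SE 0.24, adjusted p 0.0384), or 1.99-fold. The annotation lists 4 processed pseudogenes named as copies of UBE2C, and the highest count in any of them was 35. MAD2L1, which encodes the checkpoint protein MAD2, rose from 33.1 and 23.5 CPM to 46.9 and 51.8 CPM (log2 change 0.80, SE 0.21, adjusted p 0.0477). ESPL1, which encodes separase, rose from 34.3 and 29.8 CPM to 53.0 and 59.8 CPM (log2 change 0.81, SE 0.17, adjusted p 0.0252).

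The partners of these genes did not all follow. PTTG1, which encodes securin, the inhibitor of separase, was at 49.2 and 55.1 CPM with DMSO and at 43.8 and 53.2 CPM with ACBI1. The groups overlapped, with a log2 change of -0.11 (SE 0.17, adjusted p 0.712), so that the count ratio of PTTG1 to ESPL1 was 1.43 and 1.85 with DMSO and 0.826 and 0.890 with ACBI1. PTTG2, a retrocopy of PTTG1, had at most 1 count per library. BUB3, which carries BUB1 and BubR1 to kinetochores and also works outside mitosis, was at 144 and 103 CPM against 135 and 115 CPM (log2 change 0.02, adjusted p 0.967). CDC20, the activator of the anaphase-promoting complex, was at 68.3 and 87.2 CPM against 96.9 and 152 CPM, without overlap but not called (log2 change 0.68, SE 0.26, adjusted p 0.124).

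All 7 centromere and kinetochore genes had values in both ACBI1 libraries above both DMSO libraries, as did 31.1% of all genes tested. The median log2 change of the 7 was 0.65. CENPF was the 1 called higher (14.3%, against 6.75% of all genes tested). CENPF, a large coiled-coil protein of the outer kinetochore, rose from 118 and 107 CPM to 188 and 224 CPM (log2 change 0.87, SE 0.17, adjusted p 0.0241). CENPA, the histone H3 variant that marks the centromere, was at 21.0 and 21.2 CPM against 25.3 and 35.9 CPM (log2 change 0.54, adjusted p 0.139). CENPE, a kinesin that carries chromosomes to the spindle equator, was at 35.9 and 32.5 CPM against 44.6 and 47.3 CPM (log2 change 0.43, adjusted p 0.111).

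The Ndc80 complex, the main microtubule grip of the kinetochore, joins NDC80 and NUF2 to SPC24 and SPC25. NDC80 was at 13.1 and 9.55 CPM with DMSO and at 20.2 and 17.9 CPM with ACBI1 (log2 change 0.75, adjusted p 0.0741). SPC25 was at 7.79 and 5.53 CPM against 10.4 and 12.1 CPM (log2 change 0.76, adjusted p 0.105), and SPC24 at 10.8 and 11.8 CPM against 13.3 and 22.2 CPM (log2 change 0.65, adjusted p 0.170). NUF2 had the smallest change of the kinetochore genes, from 35.3 and 33.3 CPM to 41.9 and 40.8 CPM (log2 change 0.27, adjusted p 0.262). No subunit was called, although in each of them the groups did not overlap. Per kb of exonic length, NUF2 had the highest transcript level of the subunits, at 10.2 ± 0.429 CPM per kb with DMSO (SD, n = 2). Protein was not measured. The other subunits were at 3.14 ± 0.688 (NDC80), 3.62 ± 0.866 (SPC25) and 3.98 ± 0.244 (SPC24) CPM per kb, and neighbours in that order do not differ beyond their spread. NUF2 also came first in both ACBI1 libraries, while the order of the other subunits differed between these libraries.

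**Figure D2:**
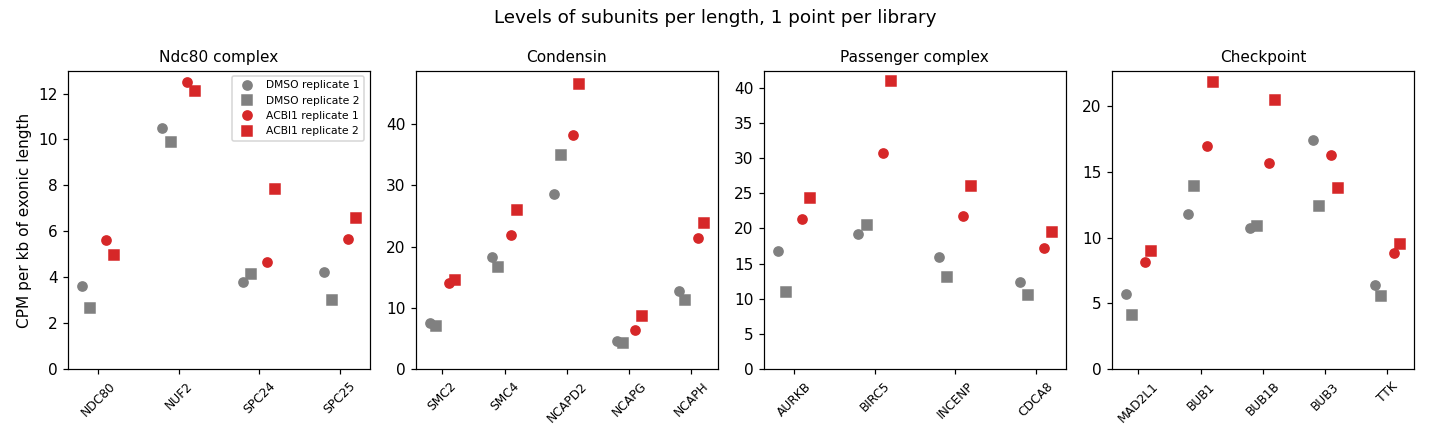
Level per library in CPM per kb of exonic length for subunits of the Ndc80 complex, condensin and the passenger complex and for the checkpoint genes MAD2L1, BUB1, BUB1B, BUB3 and TTK, with DMSO in grey and ACBI1 in red. Among the genes plotted, red points lie above grey points except for BUB3, where they overlap.

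Of the 4 genes of the chromosomal passenger complex, 3 rose, and AURKB, described with the kinases, was not called. This complex places Aurora B on centromeres and later on the central spindle, and its further subunits are the scaffold INCENP, survivin (BIRC5) and borealin (CDCA8). BIRC5 rose from 73.3 and 78.4 CPM with DMSO to 117 and 156 CPM with ACBI1 (log2 change 0.85, SE 0.19, adjusted p 0.0330). INCENP rose from 71.4 and 58.6 CPM to 96.9 and 116 CPM (log2 change 0.71, SE 0.18, adjusted p 0.0467). CDCA8 rose from 30.7 and 26.3 CPM to 42.5 and 48.2 CPM (log2 change 0.67, SE 0.17, adjusted p 0.0449). The changes of these 3 genes lay between 0.67 and 0.85, and the value for AURKB, 0.71, lay in this range.

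The mitotic kinesins, motors that slide, carry or take apart microtubules, had a median log2 change of 0.45, and 1 of 5 was called. KIF23, the motor subunit of centralspindlin in the midzone, rose from 73.3 and 55.7 CPM to 110 and 116 CPM (log2 change 0.81, SE 0.19, adjusted p 0.0348). KIF11, the motor that separates the spindle poles, was at 39.6 and 47.5 CPM against 55.2 and 77.5 CPM without overlap (log2 change 0.61, SE 0.21, adjusted p 0.105). KIF18A, which dampens chromosome movements, was at 14.7 and 15.4 CPM against 21.3 and 19.8 CPM (log2 change 0.45, adjusted p 0.135). KIF20A, the motor that brings the passenger complex to the midzone, was at 30.7 and 50.8 CPM against 39.7 and 61.8 CPM, and its replicates differed more than its groups (log2 change 0.32, SE 0.31, adjusted p 0.523). KIF2C, which takes microtubules apart at kinetochores, was the smallest change of the group, from 58.4 and 47.7 CPM to 61.8 and 57.9 CPM (log2 change 0.17, SE 0.17, adjusted p 0.518).

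Proteins that bind spindle microtubules formed the group with the lowest median after the entry regulators, 0.35, and 0 of 5 were called. TPX2, which activates Aurora A and seeds microtubules near chromosomes, came closest, at 174 and 161 CPM with DMSO and 242 and 281 CPM with ACBI1. Its log2 change was 0.64 (SE 0.17) with an adjusted p of 0.0508, and 7 of the 8 alternatives called it. ASPM, which focuses the spindle poles, was at 76.1 and 78.4 CPM against 91.0 and 114 CPM (log2 change 0.41, adjusted p 0.158). DLGAP5 (log2 change 0.19, adjusted p 0.495) and HMMR (0.35, adjusted p 0.380) had groups that overlapped. NUSAP1 had only 9 to 16 counts per library, far below the other spindle genes. In GENCODE 29 another gene, AC087721.2, covers 62.2% of its exonic length on the same strand, and HTSeq's default mode leaves out reads that fall on exons of more than 1 gene. AC087721.2 was not among the gene symbols counted, and whether the overlap lowered the counts was not tested. With so few counts, the level of NUSAP1 (chr15:41332694-41381050, plus strand, GRCh38) could not be judged.

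Of the 4 cytokinesis genes, ECT2 was called. ECT2, the exchange factor that activates RhoA at the division plane, was at 67.9 and 73.8 CPM with DMSO and at 133 and 139 CPM with ACBI1. The replicates lay close together and the groups far apart, and the log2 change of 0.94 (SE 0.15, adjusted p 0.0136) came next to those of UBE2C and SMC2 in size. RACGAP1, the partner of KIF23 in centralspindlin, was at 47.9 and 43.2 CPM against 57.8 and 64.8 CPM (log2 change 0.43, adjusted p 0.116). ANLN, the scaffold of the contractile ring, was at 56.1 and 68.6 CPM against 60.9 and 78.7 CPM with overlap (log2 change 0.16, adjusted p 0.612). PRC1, which bundles the microtubules of the midzone, had 57 to 170 counts per library. AC068831.7 and the antisense gene PRC1-AS1 cover 58.4% of its exonic length (chr15:90966038-90995629, minus strand, GRCh38). The groups did not overlap, but PRC1 was not called (log2 change 0.93, adjusted p 0.128). Whether the shared exons altered the counts of PRC1 or this change was not tested. Without PRC1 the median of the cytokinesis genes was 0.43 in place of 0.68.

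Condensin, the ring complex that compacts mitotic chromosomes, had a median log2 change of 0.74, and 2 of its 5 genes rose. SMC2, an ATPase subunit of both condensins, had the lowest adjusted p of the 50 genes. It was at 48.3 and 45.9 CPM with DMSO and at 90.3 and 94.4 CPM with ACBI1, a log2 change of 0.97 (SE 0.15, adjusted p 0.0114), or 1.96-fold. SMC2 was also the only member called whichever library was left out. NCAPH, the kleisin that closes the ring, rose from 41.9 and 37.1 CPM to 70.0 and 78.4 CPM (log2 change 0.91, SE 0.16, adjusted p 0.0171). NCAPG, a HEAT-repeat subunit, was at 22.9 and 21.4 CPM against 31.5 and 42.6 CPM (log2 change 0.74, adjusted p 0.0524). LCORL, on the other strand, covers 33.1% of its exons.

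The remaining condensin genes had smaller changes without overlap of the groups. SMC4, the ATPase that pairs with SMC2, was at 155 and 141 CPM against 185 and 220 CPM (log2 change 0.45, adjusted p 0.126). Genes on the other strand, IFT80 and TRIM59, cover 25.6% of its exons. NCAPD2 was at 185 and 226 CPM against 248 and 302 CPM (log2 change 0.42, adjusted p 0.187). Per length, NCAPD2 was the most abundant condensin transcript, at 31.7 ± 4.48 CPM per kb with DMSO and 42.5 ± 5.87 CPM per kb with ACBI1 (SD, n = 2). SMC2 was at 7.29 ± 0.261 and 14.3 ± 0.448 CPM per kb (SD, n = 2), below SMC4 at 17.5 ± 1.17 and 24.0 ± 2.88 CPM per kb (SD, n = 2). The count ratio of NCAPD2 to SMC2 was 3.83 and 4.93 with DMSO and 2.75 and 3.20 with ACBI1.

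MKI67, which encodes the proliferation antigen Ki-67 that coats mitotic chromosomes, rose from 142 and 155 CPM to 231 and 296 CPM (log2 change 0.83, SE 0.19, adjusted p 0.0347). TOP2A, the topoisomerase that untangles sister chromatids, was at 166 and 129 CPM against 200 and 239 CPM, without overlap and not called (log2 change 0.57, SE 0.20, adjusted p 0.101).

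The members also differed together between the ACBI1 libraries. Relative to the mean of the DMSO libraries, the median log2 level of the 50 genes was 0.40 in ACBI1 replicate 1 and 0.69 in ACBI1 replicate 2. Of the 50 genes, 41 (82.0%) were higher in replicate 2 than in replicate 1, where 49.4% of all genes tested were. Between the DMSO libraries the median difference was -0.09, replicate 2 minus replicate 1, against 0.24 between the ACBI1 libraries. Both ACBI1 libraries thus had median levels above DMSO, lower in replicate 1 than in replicate 2.

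**Figure D3:**
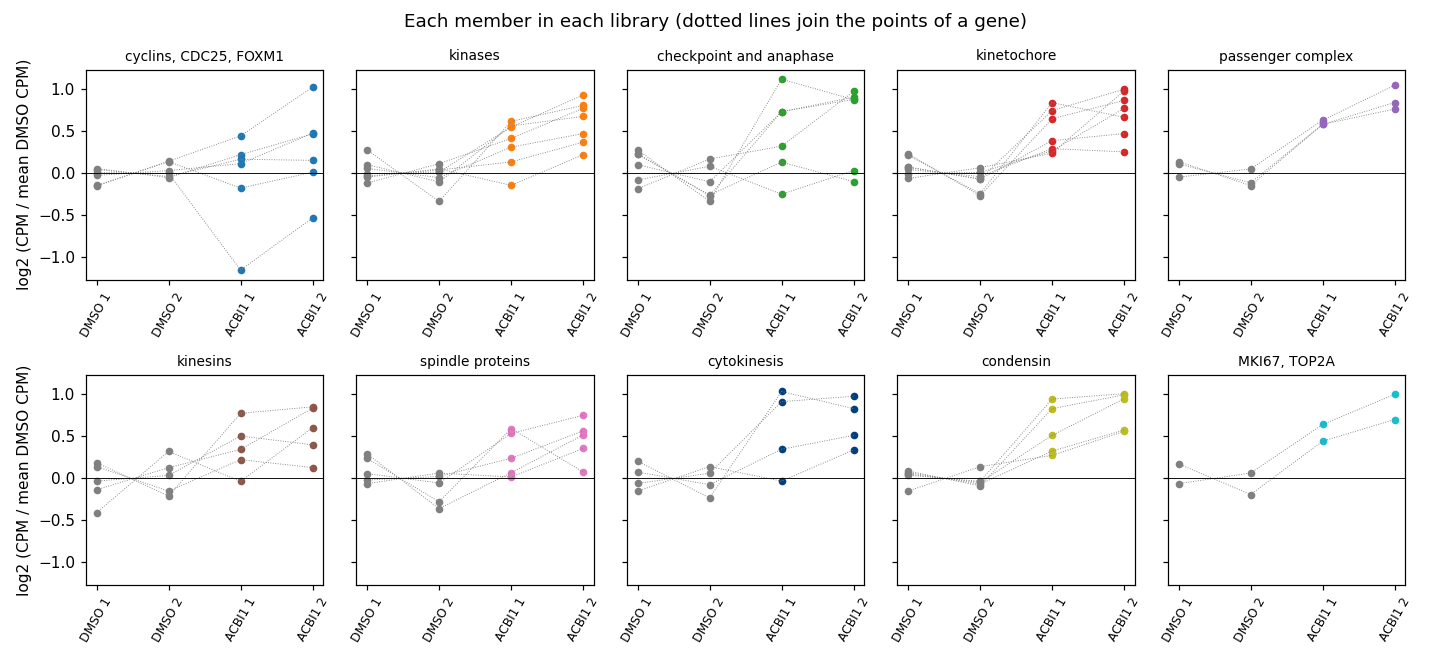
Level of each gene in each library as log2 of its CPM over the mean DMSO CPM, in a panel per role, with DMSO points in grey, ACBI1 points in colour and dotted lines joining the points of a gene. In most panels ACBI1 points lie above 0 and higher in replicate 2, while CDC25B lies below 0 in both ACBI1 libraries.

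Promoters were examined because 47 of the 50 members had a positive log2 change. RefSeq windows (GRCh38.p14) from 250 bases before to 50 bases after the start were matched for 42 of the 50 genes; AURKA, BIRC5, BUB3, FOXM1, RACGAP1, TPX2, TTK and UBE2C were not matched. Shown are the 100 bases before the start of 4 members with small changes (CCNB1, CCNB2, PLK1, PTTG1) and 4 called members (ESPL1, INCENP, KIF23, MKI67), chosen after their values were seen, since the same letters occur in both sets. Capitals mark TTTGAA or TTTAAA, the core letters of CHR, and CCAAT, the box bound by NF-Y, on either strand (TTCAAA and ATTGG on the other). The E2F letters searched were TTCCCGC, then also TTCGCGC, further TTGCCGC, as well as TTGGCGC, on either strand, and the stretches shown hold none of them. Neighbouring matches can overlap, as in PTTG1 and MKI67. Not all called members share this layout. In the same 100 bases, MAD2L1, CENPF, ECT2, NCAPH and SMC2 held no whole CHR match, while BUB1B and CDCA8 did. MAD2L1, NCAPH, SMC2 and BUB1B held no CCAAT there. The 300-base windows of MAD2L1, CENPF, ECT2, NCAPH and SMC2 did hold CHR letters.
CCNB1 (chr5:69167050-69167149, plus strand): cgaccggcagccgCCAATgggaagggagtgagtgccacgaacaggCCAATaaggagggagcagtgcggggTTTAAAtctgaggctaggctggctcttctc
CCNB2 (chr15:59105046-59105145, plus strand): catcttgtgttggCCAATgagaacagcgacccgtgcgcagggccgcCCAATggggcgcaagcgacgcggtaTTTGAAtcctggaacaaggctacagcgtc
PLK1 (chr16:23678789-23678888, plus strand): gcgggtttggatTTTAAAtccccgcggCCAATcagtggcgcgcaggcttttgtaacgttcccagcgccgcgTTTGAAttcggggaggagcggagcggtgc
PTTG1 (chr5:160421755-160421854, plus strand): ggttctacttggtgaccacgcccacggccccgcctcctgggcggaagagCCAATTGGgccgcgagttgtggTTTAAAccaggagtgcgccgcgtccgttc
ESPL1 (chr12:53268199-53268298, plus strand): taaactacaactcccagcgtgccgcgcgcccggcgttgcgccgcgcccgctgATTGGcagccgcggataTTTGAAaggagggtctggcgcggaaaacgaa
INCENP (chr11:62123911-62124010, plus strand): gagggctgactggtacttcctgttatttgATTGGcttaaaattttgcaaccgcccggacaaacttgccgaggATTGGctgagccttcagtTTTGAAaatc
KIF23 (chr15:69414249-69414348, plus strand): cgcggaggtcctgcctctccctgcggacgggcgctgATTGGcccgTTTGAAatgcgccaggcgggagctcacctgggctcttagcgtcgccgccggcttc
MKI67 (chr10:128126424-128126523, minus strand): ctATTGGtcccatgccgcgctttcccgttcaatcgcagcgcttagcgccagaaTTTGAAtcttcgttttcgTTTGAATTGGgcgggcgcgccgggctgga

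Counting in each stretch the match nearest the start, the CHR letters began 29 bases before it in CCNB2, PLK1, PTTG1 and MKI67, 30 bases before it in CCNB1 and 31 bases before it in ESPL1. In KIF23 they began 55 and in INCENP 10 bases before the start. Further matches began 88 and 148 bases before the start in PLK1, 47 in MKI67, 193 in CCNB2 and 211 in KIF23, of which the stretches shown hold those at 88 and 47. Over the 300 bases of each window, TTTGAA or TTTAAA occurred in 36 of 42 members (85.7%) and in 24.3% of all 27305 windows of the table, or 16.2% of the 12359 windows of genes tested. With the first letter no more than 50 bases before the start or after it, 29 members (69.0%) and 7.75% of all windows (4.55% of those of genes tested) held them. CCAAT occurred in 31 members (73.8%, against 35.7% of all windows and 36.2% of those of genes tested). The E2F letters occurred in 15 (35.7%, against 13.1% and 19.9%). The members with CHR letters had a median log2 change of 0.55 and the 6 without them 0.47. The gap depended on the definition. Members with the letters no more than 50 bases before the start or after it had 0.61, and the 13 others 0.45. With TTTGAA alone the medians were 0.64 with and 0.33 without (12 members). The medians were 0.60 with and 0.43 without CCAAT, and 0.41 with and 0.65 without E2F letters. Over the windows of genes tested, medians with and without the letters were -0.01 and 0.00 for CHR and -0.01 and 0.01 for CCAAT. For E2F letters they went the other way from the members, 0.11 with and -0.03 without. A match of letters is not a bound site, and these medians carry no test.

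Other genes of the same pathway, 125 that are not among the 50, had a median log2 change of 0.46, with 28 called higher and 2 lower. These are 24.0% of the list, where 17.4% of all genes tested were called, 6.75% higher and 10.6% lower. Of 30 further kinetochore and centromere genes, 11 rose and 1 fell, with a median of 0.60. The largest changes were those of CENPP, a subunit of the inner kinetochore (1.52, adjusted p 0.0117), SKA1, which tracks microtubule ends (1.46, adjusted p 0.0102), and KNTC1, which recruits dynein (1.23, adjusted p 0.0117). MIS12, of the complex that links centromere and Ndc80, fell from 44.3 and 42.4 CPM to 26.0 and 25.1 CPM (log2 change -0.76, adjusted p 0.0240), and is named after its values were seen. Of 20 further checkpoint and anaphase-promoting complex genes, 2 rose and 1 fell, with a median of 0.21, and 3 called of 20 is a share near the 17.4% of all genes tested. TRIP13, the ATPase that remodels MAD2, rose from 66.7 and 46.2 CPM to 173 and 188 CPM (log2 change 1.68, adjusted p 0.00776). UBE2S, which extends the chains that UBE2C starts, had a change of 0.76 (adjusted p 0.0273), and ANAPC16, a subunit of the complex, one of -0.69 (adjusted p 0.0467).

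Of 15 further kinases and their regulators, 7 rose and 0 fell (median 0.60). PKMYT1, which inhibits CDK1, went from 20.1 and 9.51 CPM to 46.1 and 51.4 CPM (log2 change 1.72, adjusted p 0.0256), CKS1B, a small CDK subunit, changed by 1.12 (adjusted p 0.0275), and CDC25A, a further CDC25 phosphatase, by 1.04 (adjusted p 0.0300). Among CDC25 genes the values were thus 1.04 for CDC25A, 0.16 for CDC25C and -0.81 for CDC25B. Of 7 further kinesins, KIF15 (1.15, adjusted p 0.0129) and KIF18B (1.06, adjusted p 0.0242) rose (median 0.66). Of 25 further spindle and centrosome genes, STIL (0.89, adjusted p 0.0192) and CEP152 (0.73, adjusted p 0.0302), both of centriole duplication, rose (median 0.49), and 2 of 25 is a share near the 6.75% of all genes tested that were called higher. Of 16 condensin II and cohesin genes, CDCA5, which protects cohesin (1.24, adjusted p 0.0200), SGO1, the guardian of centromeric cohesin (0.90, adjusted p 0.0349), and NCAPG2, of condensin II (0.80, adjusted p 0.0255), rose (median 0.55).

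Of 12 genes of the DREAM and MuvB complexes, MYBL2 alone was called, and the median was 0.31. This share of 8.33% is near the 6.75% of all genes tested that were called higher. MYBL2, the late partner of MuvB, rose from 44.7 and 38.7 CPM to 106 and 138 CPM (log2 change 1.55, adjusted p 0.00700). The MuvB subunits LIN9, LIN37, LIN52, LIN54 and RBBP4 had log2 changes of 0.48, -0.07, 0.12, -0.01 and 0.19, and none was called. For RBL1, E2F4, TFDP1, TFDP2, E2F5 and RBL2 the changes were 0.64, 0.55, 0.46, 0.41, 0.21 and -0.22, also without a call. Both ACBI1 libraries lay above both DMSO libraries in 7 of the 12 (31.1% of all genes tested). They lay below them in 1 (32.2% of all genes tested). Genes of DNA replication were listed for comparison. All 35 had both ACBI1 libraries above both DMSO libraries, as did 31.1% of all genes tested. Of the 35, 27 rose and 0 fell (77.1% called, against 6.75% of all genes tested higher and 10.6% lower). The median log2 change of the 35 was 1.20 against 0.59 for the mitotic genes. E2F1 (1.93), the DNA polymerase epsilon subunit gene POLE2 (1.89) and the helicase subunit gene MCM3 (1.74) had the largest changes, with adjusted p of 0.00485, 0.00532 and 0.00396. The highest change among the 50 mitotic genes, 0.99, lay below the replication median. The difference between the lists was not tested.

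**Figure D4:**
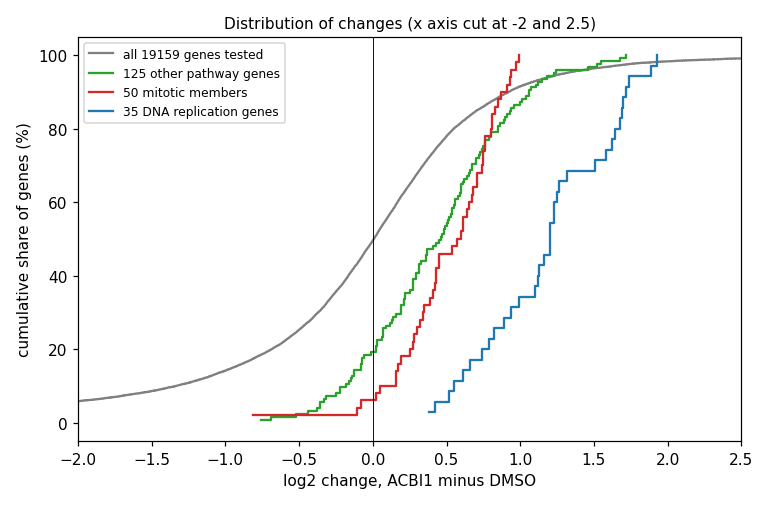
Cumulative share of genes in percent against the log2 change, ACBI1 minus DMSO, for all 19159 genes tested, 125 other pathway genes, the 50 mitotic genes and 35 DNA replication genes. The curve of the mitotic genes crosses 50% near its median of 0.59 and ends at 0.99, while that of the replication genes has its median at 1.20.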

How the data were processed

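Total RNA of 4 H1792 libraries had been sequenced. The deposited files hold raw read counts per gene symbol in the layout of htseq-count. TopHat2 2.1.1, HTSeq 0.11.0 and hg38 are named in the submitters' processing notes; the annotation and strand setting are not given in the sources used here. Without a stated strand setting, overlapping and antisense genes can take or lose reads. The 5 lines for reads given to no gene were left out; gene counts were 84.6% to 86.1% of all reads listed.

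Genes were filtered with edgeR's filterByExpr (minimum count 10, minimum total 15; 19159 kept, all 50 members among them), scaled by TMM and fitted in edgeR 4.0.16 under R 4.3.3 (glmQLFit, glmQLFTest, treatment only, two-sided). Benjamini-Hochberg adjustment ran over all 19159 genes. The SE is the log2 change over the square root of F. With 2 libraries a group, 0.333 is the smallest p an exact permutation test can reach, so list medians carry no test. Lengths, overlaps and positions came from GENCODE 29 (GRCh38) by symbol. A length joins all annotated exons of a gene, whether or not they were expressed, which limits comparisons of levels per kb between genes. Scripts were tested on simulated data.

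Members and lists were chosen with earlier results of these data known. All members may be named; values per library are given for at most 4 called members and the smallest change in each group, for paralogues and for subunits of complexes, and at most 3 called genes are named in each other list. Library values of some further members, and MIS12, the MuvB subunits and the other uncalled DREAM genes, were added after their values were seen. Alternatives were other scalings, filters, tools (DESeq2 1.42.0, limma-voom 3.58.1, a robust fit), a block, a threshold of 0.01, other subgroupings and each library left out. The E2F letters and a list without NUSAP1 and PRC1 were added after seeing the data.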

Additional observations from a re-analysis of the deposited data

How the results depend on the processing

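All 13 called members were called, and higher, under each of 8 alternatives with all 4 libraries and no block. Of the 37 not called, 12 were called by at least 1 of these. The members called were 23 higher and 1 lower with every gene with a count kept (6.70% and 10.1% of genes tested), 0 higher at a threshold of 0.01, and 1 lower with DESeq2. Labels do not say that replicate numbers pair the libraries (deviations of replicate 1 correlated at 0.44 over all genes tested and at 0.63 over the 50 members). With the replicate number as a block, 36 members were higher and 1 lower (19.4% and 21.9% of genes tested). With 1 library left out, so that the lone library is assumed to vary like the pair, 3 to 12 were called higher and 0 to 1 lower. The lowest and highest medians were then 0.39 to 0.69 for members, 0.40 to 0.67 for kinases, 0.51 to 0.88 for checkpoint genes, 0.38 to 0.77 for kinetochore genes, 0.33 to 0.63 for kinesins, 0.23 to 0.63 for spindle proteins, 0.50 to 0.95 for condensin and 0.53 to 0.85 for MKI67 and TOP2A. For the other lists they were 0.41 to 0.70 (kinetochore), 0.08 to 0.26 (checkpoint), 0.47 to 0.73 (kinesins), 0.32 to 0.51 (spindle) and 1.04 to 1.37 (replication). Under library size only, medians were 0.83 for condensin, 0.30 for the other checkpoint genes and 1.29 for replication genes (1.23 with upper quartile scaling). That of cytokinesis was 0.42 at a mean of at least 5 CPM and 0.43 without PRC1. That of kinases was 0.32 with TTK, BUB1 and BUB1B moved to the checkpoint genes. Signs turned for uncalled members: CCNB2 (0.00 under library size only; -0.22 to 0.07 with 1 library left out), AURKA (-0.15 to 0.22), BUB3 (-0.21 to 0.28), PTTG1 (-0.26 to 0.03), KIF20A (-0.04 to 0.73) and ANLN (-0.04 to 0.34). The cause was not tested. The exons of NUSAP1 and PRC1 overlap other genes. NUSAP1, with 9 to 16 counts per library, had too few for its level to be judged. PRC1 had 57 to 170 counts per library without overlap of the groups. Whether the shared exons altered the counts of PRC1 was not tested, so its level was not judged either.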
